A study of Mus musculus with 11 samples.

Results

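The 41 genes described here are named for their expression in endothelial cells, the cells that line blood and lymph vessels, and were followed through libraries made from ovarian granulosa cells. They were taken from a list of mouse symbols, matched to the Entrez gene IDs of the deposited tables. All 41 were found among the 24809 IDs of the RNA table and the 24541 IDs of the H3K4me3 table, and all 41 passed the filter on low counts in both assays. The granulosa cells came from C57BL/6 mouse ovaries, either with no treatment (0 h) or 48 h into treatment with eCG, equine chorionic gonadotropin, which acts on the FSH receptor in mice and which the labels also call FSH. The RNA assay has 3 libraries in each group, labelled postnatal day 21 and made from cells collected by follicular puncture, and the histone mark H3K4me3 was measured by chromatin immunoprecipitation and sequencing in 2 libraries per group, for which neither age nor way of collection is labelled. The series calls the libraries of a group biological replicates. Whether animals were pooled for a library is not given in the sources used here, and no untreated group at 48 h is analysed here, so eCG and time cannot be told apart.

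Granulosa cells surround the oocyte in a layer that holds no vessels while the follicle grows. Capillaries run outside its basement membrane, in the theca, and they expand as gonadotropin drives the follicle forward. Vascular endothelial growth factor (VEGF) acts on endothelial cells through the receptors Kdr and Flt1, angiopoietins act through Tek, and both kinds of signal control sprouting and the tightness of cell junctions. ETS factors such as Erg and Fli1 and SoxF factors (Sox7, Sox17, Sox18) are known to drive endothelial genes. In a puncture preparation, RNA of endothelial genes can come from endothelial cells that were collected with the granulosa cells, or from granulosa cells that transcribe the gene, and in such bulk samples fewer cells of a type and less RNA per cell cannot be told apart.

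RNA libraries held 12013849 to 26343971 counts, and those of H3K4me3 held 11989769 to 17968033. Levels are given as CPM, counts scaled to a common library total, with TMM scaling, an edgeR factor that corrects for library composition. Granulosa markers were abundant throughout: the summed level of 12 of them was 17839, 13472 and 15736 CPM at 0 h and 32980.5, 33306 and 33144 CPM in 48 h libraries 1 to 3. Inha and Inhba, the inhibin and activin subunits of granulosa cells, were the most abundant, with 8181 ± 922 CPM at 0 h and 16849 ± 663 CPM at 48 h and 3322 ± 672 CPM at 0 h and 10962 ± 795 CPM at 48 h (mean ± SD, n = 3 per group). In the RNA comparison given below, 8 of these 12 markers rose, 2 fell and 2 did not pass. Of all genes tested 16.0% rose and 15.8% fell. The falls were Amh (log2 -1.38) and Wt1 (log2 -1.07), so the sum does not stand for each marker. All 41 endothelial genes had at least 1 RNA count in every library. Their summed level was 363, 359.7 and 394 CPM at 0 h and 1614, 673 and 790.5 CPM in 48 h libraries 1 to 3. All 3 libraries at 48 h were above all 3 at 0 h, and 48 h library 1 stood at 4.33 times the 0 h mean against 1.81 and 2.12 times for 48 h libraries 2 and 3.

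The sequences just before the start sites show how differently built these genes are near their starts, around which H3K4me3 is usually deposited. RefSeq start-site windows (build GRCm38.p6) were found for 22 of the 41 genes, 27 windows in all. In each, the 250 bases upstream of the start were read in the direction of the gene. Windows of 5 genes follow, 5′ to 3′ with every CpG dinucleotide in capitals, because CpG-rich starts are where H3K4me3 is commonly found. She (chr3:89831120-89831369, plus strand), Flt4 (chr11:49609429-49609678, plus strand) and Clec14a (chr12:58269259-58269508, minus strand) were above 5 CPM of H3K4me3. Tie1 (chr4:118489850-118490099, minus strand) and Adgrl4 (chr3:151437632-151437881, plus strand) were not.
She: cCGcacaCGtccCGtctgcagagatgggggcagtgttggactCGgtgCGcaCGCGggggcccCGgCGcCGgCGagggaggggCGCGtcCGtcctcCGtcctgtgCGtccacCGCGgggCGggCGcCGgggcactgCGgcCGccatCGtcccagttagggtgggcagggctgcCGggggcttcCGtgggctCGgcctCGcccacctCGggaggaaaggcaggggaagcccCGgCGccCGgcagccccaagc
Flt4: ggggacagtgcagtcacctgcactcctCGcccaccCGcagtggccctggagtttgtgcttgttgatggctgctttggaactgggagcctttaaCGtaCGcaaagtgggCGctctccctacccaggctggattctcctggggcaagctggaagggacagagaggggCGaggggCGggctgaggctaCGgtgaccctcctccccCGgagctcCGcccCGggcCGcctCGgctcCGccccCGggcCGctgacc
Clec14a: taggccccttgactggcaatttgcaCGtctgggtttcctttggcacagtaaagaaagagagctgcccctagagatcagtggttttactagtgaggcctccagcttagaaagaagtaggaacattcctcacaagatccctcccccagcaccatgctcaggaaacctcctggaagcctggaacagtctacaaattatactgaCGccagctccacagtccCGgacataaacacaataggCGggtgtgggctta
Tie1: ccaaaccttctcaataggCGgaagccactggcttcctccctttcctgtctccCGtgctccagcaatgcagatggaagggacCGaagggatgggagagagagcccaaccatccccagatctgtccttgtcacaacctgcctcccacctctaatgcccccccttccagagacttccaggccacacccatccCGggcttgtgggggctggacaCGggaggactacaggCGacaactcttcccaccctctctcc
Adgrl4: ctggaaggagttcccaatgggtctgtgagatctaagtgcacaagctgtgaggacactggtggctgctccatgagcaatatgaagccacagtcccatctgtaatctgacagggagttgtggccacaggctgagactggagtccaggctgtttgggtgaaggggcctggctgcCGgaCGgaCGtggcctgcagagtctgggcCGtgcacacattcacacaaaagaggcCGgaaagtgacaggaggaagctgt

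The She window holds 32 CpGs and that of Flt4 holds 16, against 6 in Tie1 and 5 in Adgrl4. Clec14a holds 4 CpGs and is nevertheless above the H3K4me3 limit, and Egfl7, with 17 CpGs in its most CpG-rich window, was far below it, so CpG count and mark did not always go together. Taking for each gene its most CpG-rich window, 12 genes above 5 CPM had a median of 14 CpGs (3 to 32). The 10 genes not above it had a median of 3.5 (1 to 17). Over all 32851 windows the median was 6. That value counts every window and not the richest of each gene, so it is not a like measure. The H3K4me3 table does not give the region counted for each gene, so these windows need not be the counted ones. Words of the ETS core were searched on both strands as AGGAAG and CGGAAG, which share the letters GGAAG and can overlap by their ends. At least 1 of them stood in 14 of the 27 windows (51.9%) and in 39.2% of all windows. AGGAAG alone was in 12 of 27 windows against 29.5% of all windows, and a SOX word, ACAANG, where N is any base, in 9 of 27 against 36.3%. Such matches are letters and not shown to be bound sites.

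The RNA comparison asked which endothelial transcripts differed 48 h after eCG. Over 14401 genes, by the quasi-likelihood test of edgeR after Benjamini-Hochberg adjustment, 31 of the 41 genes rose, 0 fell and 10 did not pass, while 16.0% of all genes tested rose and 15.8% fell (31.8% changed in either direction). None of the 41 was lower at an unadjusted p under 0.05, and DESeq2 also called 0 lower. The median log2 fold change of the 41 was 1.58, beside -0.0305 for all genes tested. In 34 of the 41 all 48 h libraries were above all 0 h libraries, which was so for 22.1% of all genes tested, and in 0 were all below, against 25.8%. TMM gave 2303 higher and 2282 lower genes over the whole table, and scaling by library size alone gave 1543 and 4222. Under the latter the median log2 fold over the whole table shifted to -0.201 and that of the 41 to 1.41. Without 48 h library 1 the median of the 41 was 1.04, and 29 of the 31 genes kept their call. In that fit 18.2% of all genes tested rose. The log2 fold of 17 of the 31 moved by over 1.5 times.

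**Figure D1:**
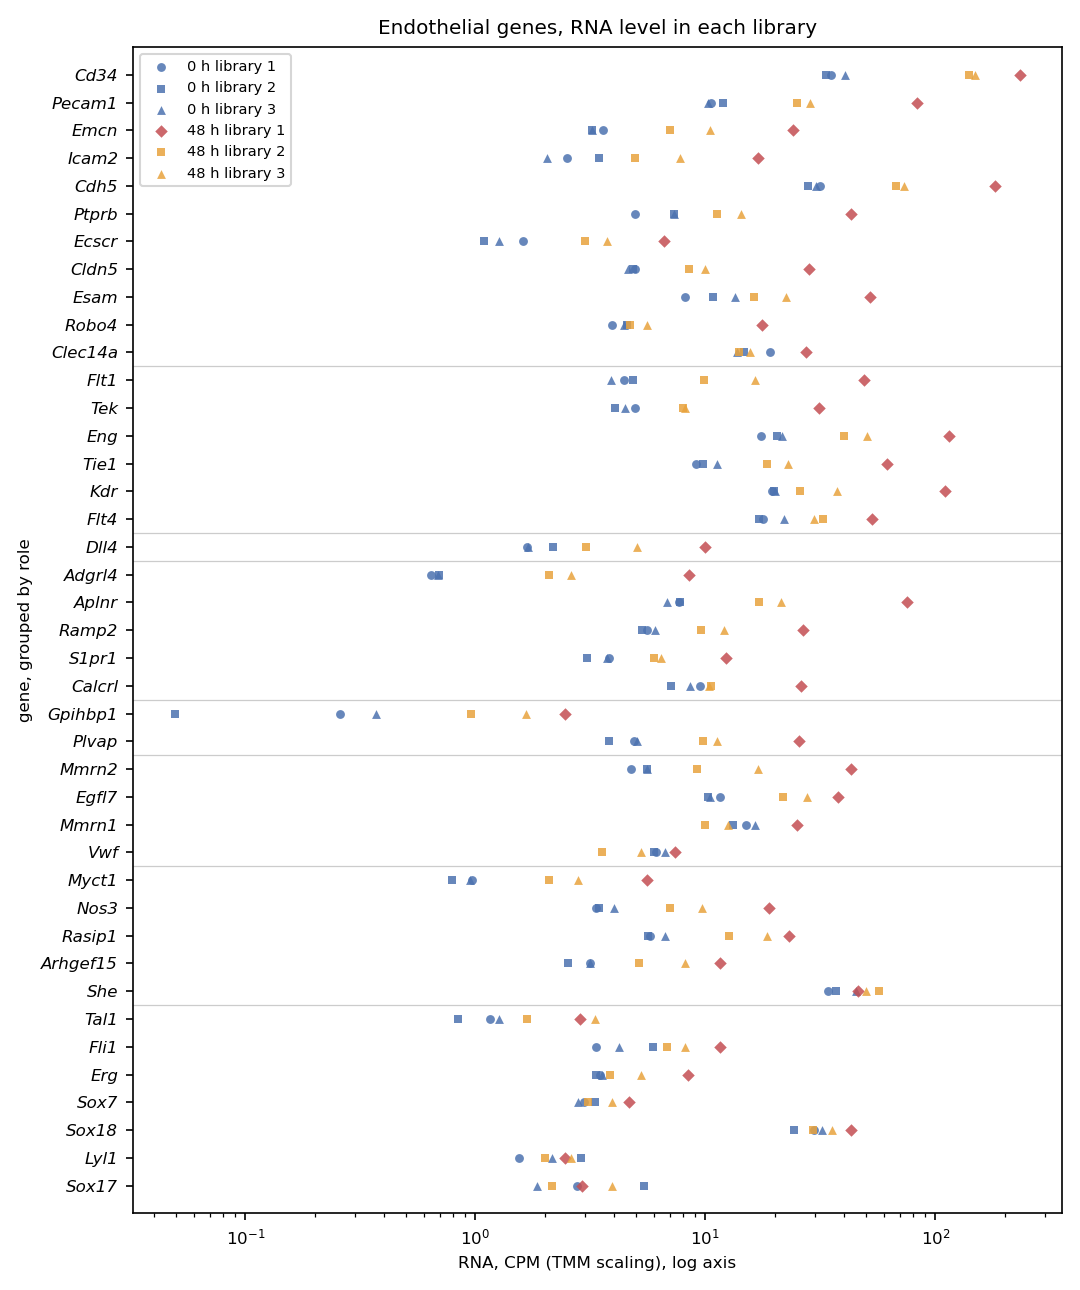
RNA level in CPM (log axis) of the 41 endothelial genes, 1 point per library, grouped by role and ordered by fold change within a role; blue marks 0 h, red 48 h library 1 and orange 48 h libraries 2 and 3. The red diamond is the highest of 6 points for 37 of 41 genes, and the orange points both lie above all blue points for 34 of 41.

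Junction and adhesion genes define the endothelial sheet, and 9 of 11 rose. Beside this and the counts by role that follow, 16.0% of all genes tested rose and 15.8% fell. Cdh5 (gene ID 12562, chromosome 8, 104101613 to 104144504), the VE-cadherin of endothelial junctions, had 31.4, 27.8 and 30.3 CPM in the 3 libraries at 0 h and 182, 67.1 and 72.9 CPM in 48 h libraries 1 to 3. Its groups did not overlap, and 48 h library 1 was 2.598 times the mean of the other two (log2 1.84 ± 0.35, adjusted p = 0.00512 for 48 h over 0 h, with the SE after the sign). Pecam1 (gene ID 18613, chromosome 11, 106654213 to 106715281), an adhesion molecule of the same contacts, had 10.6, 11.9 and 10.2 CPM at 0 h and 83.2, 24.96 and 28.6 CPM at 48 h (log2 2.05 ± 0.43, adjusted p = 0.00763). Again library 1 was far above libraries 2 and 3, and these were above all of 0 h.

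Cldn5, the tight junction claudin of endothelium, had 4.95, 4.84 and 4.59 CPM at 0 h and 28.1, 8.48 and 9.93 CPM at 48 h (log2 1.68 ± 0.42, adjusted p = 0.0172). Esam, an endothelial adhesion molecule, had 8.17, 10.8 and 13.4 CPM at 0 h and 52.2, 16.2 and 22.4 CPM at 48 h (log2 1.47 ± 0.401, adjusted p = 0.0238), with 0 h library 1 the lowest. Icam2, a leukocyte ligand, rose by 1.87, Emcn, an endothelial sialomucin, by 2.04, Ecscr, an endothelial surface protein, by 1.74 and the phosphatase gene Ptprb, which restrains Tek and Cdh5 signalling, by 1.78 on the log2 scale. In each of these, 48 h library 1 was the highest of 6 libraries. Without it the log2 fold was 1.23 at Cdh5, 1.28 at Pecam1, 0.93 at Cldn5, 0.81 at Esam, 1.21 at Icam2, 1.37 at Emcn, 1.35 at Ecscr and 0.94 at Ptprb.

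Cd34 (gene ID 12490, chromosome 1, 194938821 to 194961292), a sialomucin of capillaries and of some stromal and blood progenitor cells, had the smallest adjusted p of the 41. It had 35.2, 33.5 and 40.5 CPM in the 3 libraries at 0 h and 233, 139.8 and 149 CPM in 48 h libraries 1 to 3 (log2 2.26 ± 0.19, adjusted p = 2.32e-04). Its 48 h libraries were closer to each other than in most of the list, library 1 being 1.61 times the mean of libraries 2 and 3, and all 3 stood far above 0 h.

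Robo4 and Clec14a, surface proteins of endothelium, did not pass. Robo4 had 3.92, 4.55 and 4.43 CPM at 0 h and 17.7, 4.72 and 5.57 CPM at 48 h (log2 1.100 ± 0.46, adjusted p = 0.102), so that 48 h libraries 2 and 3 lay just above 0 h and library 1 stood alone. Clec14a had 19.2, 14.8 and 13.8 CPM at 0 h and 27.5, 14 and 15.7 CPM at 48 h (log2 0.26 ± 0.25, adjusted p = 0.472) and its groups overlapped.

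All 6 receptors of the VEGF, Tie and TGF-beta coreceptor group rose. Kdr (gene ID 16542, chromosome 5, 75932827 to 75979072), the main VEGF receptor, had 19.5, 19.8 and 20.1 CPM in the 3 libraries at 0 h and 110.2, 25.8 and 37.4 CPM in 48 h libraries 1 to 3 (log2 1.53 ± 0.46, adjusted p = 0.0346). At 0 h its libraries were close together, and 48 h library 1 was 3.49 times the mean of libraries 2 and 3. Flt1 (gene ID 14254, chromosome 5, 147561604 to 147726438), which binds VEGF as a decoy, had 4.44, 4.84 and 3.905 CPM at 0 h and 48.9, 9.84 and 16.5 CPM at 48 h (log2 2.495 ± 0.54, adjusted p = 0.00882). Flt4, the receptor for Vegfc and Vegfd on lymphatic and some blood endothelium, had 17.8, 17.1 and 21.9 CPM at 0 h and 53.1, 32.6 and 29.6 CPM at 48 h (log2 1.02 ± 0.21, adjusted p = 0.00814), and its 48 h libraries were closer together than those of Kdr and Flt1.

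Tek (gene ID 21687, chromosome 4, 94739086 to 94874976), the angiopoietin receptor, had 4.95, 4.05 and 4.49 CPM at 0 h and 31.1, 7.96 and 8.19 CPM at 48 h (log2 1.799 ± 0.51, adjusted p = 0.0265). Its partner Tie1 had 9.13, 9.73 and 11.2 CPM at 0 h and 61.4, 18.5 and 22.99 CPM at 48 h (log2 1.76 ± 0.41, adjusted p = 0.0124). Eng, endoglin, a coreceptor for TGF-beta family ligands, had 17.5, 20.4 and 21.5 CPM at 0 h and 114, 39.9 and 50.4 CPM at 48 h (log2 1.77 ± 0.35, adjusted p = 0.00623), although it overlaps Fpgs, at a mean of 20.2 CPM, and the sources used here do not say whether counting used strand. In all 3 genes the 48 h libraries were above those at 0 h, with library 1 far above the others. Dll4, the Notch ligand of sprouting tip cells, had 1.67, 2.17 and 1.69 CPM at 0 h and 9.97, 3.04 and 5.05 CPM at 48 h (log2 1.68 ± 0.42, adjusted p = 0.0166), and its groups did not overlap. Without 48 h library 1 the log2 folds of these receptors and of Dll4 were 0.65 at Kdr, 1.56 at Flt1, 0.72 at Flt4, 0.85 at Tek, 1.04 at Tie1, 1.17 at Eng and 1.098 at Dll4.

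G protein receptors and their partners rose in 4 of 5 cases. Aplnr (gene ID 23796, chromosome 2, 85136360 to 85139923), the apelin receptor, had 7.65, 7.76 and 6.81 CPM in the 3 libraries at 0 h and 75.6, 17.1 and 21.2 CPM in 48 h libraries 1 to 3 (log2 2.35 ± 0.52, adjusted p = 0.0103). Library 1 was 3.94 times the mean of the other two, the highest such ratio among the 41 genes. Adgrl4, an adhesion receptor of endothelium, was low at 0 h, with 0.643, 0.692 and 0.686 CPM at 0 h and 8.51, 2.08 and 2.61 CPM at 48 h (log2 2.67 ± 0.57, adjusted p = 0.00826). Ramp2, which turns Calcrl into the adrenomedullin receptor, rose by 1.498 and S1pr1, the sphingosine 1-phosphate receptor that steadies junctions, by 1.22. Calcrl itself had 9.45, 7.12 and 8.55 CPM at 0 h and 26.1, 10.6 and 10.4 CPM at 48 h and did not pass (log2 0.898 ± 0.34, adjusted p = 0.0773), although its groups did not overlap. Without 48 h library 1 the log2 fold was 1.36 at Aplnr, 1.77 at Adgrl4, 0.93 at Ramp2 and 0.81 at S1pr1.

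Both capillary surface genes rose. Plvap, which forms the diaphragms of fenestrated capillaries, had 4.89, 3.805 and 5.07 CPM at 0 h and 25.5, 9.802 and 11.2 CPM at 48 h (log2 1.75 ± 0.36, adjusted p = 0.00697) and overlaps Gtpbp3, at a mean of 36.8 CPM. Gpihbp1, which carries lipoprotein lipase to the capillary lumen, had 4, 1 and 7 counts at 0 h and 32, 24 and 19 at 48 h. These few counts leave its fold change (log2 2.86 ± 0.602, adjusted p = 0.00807) with the largest SE of the 41.

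Secreted and matrix genes divided. Mmrn2, an endothelial matrix protein that binds Clec14a, had 4.76, 5.58 and 5.59 CPM at 0 h and 43.02, 9.24 and 16.98 CPM at 48 h (log2 2.099 ± 0.49, adjusted p = 0.0127), and Egfl7, a secreted endothelial factor, had 11.6, 10.2 and 10.4 CPM at 0 h and 37.9, 21.8 and 27.7 CPM at 48 h (log2 1.43 ± 0.19, adjusted p = 0.00123). Vwf, the clotting factor carrier stored in endothelium and platelets, had 6.11, 5.98 and 6.65 CPM at 0 h and 7.36, 3.56 and 5.22 CPM at 48 h (log2 -0.23 ± 0.26, adjusted p = 0.5295). Mmrn1, found in platelets and lymphatic endothelium, had 15.04, 13.1 and 16.5 CPM at 0 h and 25.1, 10 and 12.5 CPM at 48 h (log2 0.0799 ± 0.304, adjusted p = 0.867). For Vwf and Mmrn1 the groups overlapped, with 48 h library 1 highest and library 2 lowest of the 6. Without library 1 the log2 fold of Mmrn2 was 1.27.

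All 5 signalling genes rose. Nos3, the endothelial nitric oxide synthase, which overlaps Atg9b (mean 0.64 CPM), had 3.34, 3.46 and 4.01 CPM at 0 h and 18.9, 7.001 and 9.67 CPM at 48 h (log2 1.701 ± 0.35, adjusted p = 0.00699). Rasip1, a Rap1 partner needed for vessel lumens, had 5.72, 5.63 and 6.65 CPM at 0 h and 23.2, 12.7 and 18.5 CPM at 48 h (log2 1.58 ± 0.22, adjusted p = 0.00141), with 48 h library 3 between libraries 1 and 2. Arhgef15, a guanine nucleotide exchange factor of endothelium, rose by 1.48 and Myct1, an endothelial membrane protein, by 1.93. She, an SH2 adaptor, had 34.3, 37.2 and 45.1 CPM at 0 h and 45.9, 56.9 and 49.8 CPM at 48 h (log2 0.39 ± 0.13, adjusted p = 0.0432), the smallest rise of the 31, and here 48 h library 2 was the highest and library 1 the lowest of the 48 h group.

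Transcription factors rose in 2 of 7 cases, while 16.0% of all genes tested rose. Fli1, an ETS factor of endothelium and blood cells, had 3.34, 5.93 and 4.22 CPM at 0 h and 11.6, 6.84 and 8.19 CPM at 48 h (log2 0.96 ± 0.27, adjusted p = 0.0265), and Tal1, a basic helix-loop-helix factor of blood and endothelium, had 1.16, 0.84 and 1.27 CPM at 0 h and 2.84, 1.68 and 3.31 CPM at 48 h (log2 1.23 ± 0.34, adjusted p = 0.0256). Erg, the ETS factor most typical of endothelium, had 3.47, 3.36 and 3.54 CPM at 0 h and 8.43, 3.84 and 5.22 CPM at 48 h and did not pass (log2 0.74 ± 0.29, adjusted p = 0.0846). Its 48 h libraries were above those at 0 h, library 2 only slightly.

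The SoxF genes did not pass. Sox18 (gene ID 20672, chromosome 2, 181669837 to 181671640) had 29.8, 24.4 and 32.1 CPM at 0 h and 42.9, 29.5 and 35.7 CPM at 48 h (log2 0.32 ± 0.15, adjusted p = 0.146), Sox7 had 2.96, 3.31 and 2.797 CPM at 0 h and 4.68, 3.08 and 3.92 CPM at 48 h (log2 0.35 ± 0.24, adjusted p = 0.2902) and Sox17 had 2.76, 5.44 and 1.85 CPM at 0 h and 2.91, 2.16 and 3.92 CPM at 48 h (log2 -0.19 ± 0.41, adjusted p = 0.759). All 3 had overlapping groups, and the highest Sox17 value was in 0 h library 2. Lyl1, a relative of Tal1, had 1.54, 2.87 and 2.16 CPM at 0 h and 2.45, 2 and 2.61 CPM at 48 h (log2 0.0823 ± 0.295, adjusted p = 0.858) and overlaps Nfix, at a mean of 103 CPM.

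Several calls were lost when 1 library was left out, in fits that then had fewer samples (adjusted p in parentheses). Without 0 h library 1 the call was lost at Kdr (adjusted p = 0.0903), Tek (0.0658), Esam (0.078), Cldn5 (0.0504), Ptprb (0.0712), Dll4 (0.0523), Tal1 (0.0533), Fli1 (0.0706) and She (0.115). Without 0 h library 2 it was lost at Kdr (0.0861), Tek (0.0793), Esam (0.0644), Cldn5 (0.0514), Ptprb (0.052), Tal1 (0.0824), S1pr1 (0.0522) and She (0.119). Without 0 h library 3 the same held for Kdr (0.097), Tek (0.0824), Cldn5 (0.0622), Ptprb (0.0602), Icam2 (0.0565), Dll4 (0.0621), Tal1 (0.0581) and Fli1 (0.0846).

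Among the 48 h libraries, leaving out library 1 ended the calls of Fli1 (0.0658) and Tal1 (0.0509). Leaving out library 2 ended that of She (0.125) and added Robo4 (0.0468) and Erg (0.0372). Leaving out library 3 ended those of She (0.0738), Fli1 (0.0616) and Tal1 (0.0955). With a block on the replicate number She (0.0549) and Fli1 (0.0667) did not pass, and with library size as the only scaling She did not (0.208). With DESeq2, Robo4 (0.0326) and Calcrl (0.0223) passed as rises. The other 20 of the 31 genes kept their call under every alternative of scaling, filter, test, block and left-out library that was run.

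48 h library 1 stood apart for most of the list. It was the highest of 6 libraries for 37 of the 41 genes (90.2%), against 22.1% of all genes tested, and above libraries 2 and 3 for the same number, 37, against 42.0%. Its level was 2.3 times the mean of 48 h libraries 2 and 3 in the median of the 41 genes. In the median of all genes tested it was 0.9999 times. TMM scaling by itself brings that all-gene median near 1, so it does not show library 1 to be like the others outside the list. Within the list the ratio ran from 0.861 at She to 3.94 at Aplnr. Beside the 0 h mean, the median ratio over the list was 4.99 in library 1 and 2.07 in the mean of libraries 2 and 3. In 34 of 41 genes libraries 2 and 3 were both above every 0 h library, which was so for 30.8% of all genes tested.

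The summed markers of cells around vessels were also highest in 48 h library 1. Of 11 pericyte and smooth muscle markers tested 4 rose and 7 did not pass, with summed levels over all 12 of 373, 362 and 361 CPM at 0 h and 699, 267 and 334 CPM in 48 h libraries 1 to 3. Its most abundant genes, Acta2 and Tagln, both contractile, were at 139.5 ± 14.5 CPM at 0 h and 119 ± 52.99 CPM at 48 h and 52.9 ± 5.44 CPM at 0 h and 50.3 ± 20.7 CPM at 48 h (mean ± SD, n = 3 per group) and did not pass. The 4 that rose, named after their values were seen, were Rgs5, Abcc9 and Notch3 of pericytes and Mcam, an adhesion molecule that endothelium also makes, with log2 folds of 1.27, 2.05, 1.51 and 1.25. Of 11 theca and stroma markers 2 rose, 2 fell and 7 did not pass, while 16.0% of all genes tested rose and 15.8% fell. The summed levels of these markers were 2876, 2392 and 2964 CPM at 0 h and 6242, 2458 and 2577 CPM in 48 h libraries 1 to 3. Cyp17a1, the androgen enzyme of theca, was at 809 ± 285 CPM at 0 h and 825 ± 575 CPM at 48 h and Col3a1, a fibrillar collagen, at 621 ± 98.96 CPM at 0 h and 1032 ± 571 CPM at 48 h, and neither passed. Those that rose were the stromal matrix genes Dcn (1.09) and Lum (1.22), and those that fell were the hedgehog pathway genes Ptch1 (-0.56) and Gli1 (-1.52), with log2 folds in parentheses.

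The sums are carried by a few abundant genes, and single markers of these lists went different ways in 48 h libraries 2 and 3. Both libraries were above every 0 h library at 4 of 11 pericyte markers, the 4 that rose, and at 2 of 11 theca and stroma markers, Dcn and Lum. The same was so for 30.8% of all genes tested. Notch3 had 17.4 and 24.1 CPM against at most 13.03 CPM at 0 h, Abcc9 11.6 and 14.5 CPM against at most 7.39 CPM and Dcn 75.9 and 94.7 CPM against at most 66.9 CPM. Over the whole list, the pericyte sums of these libraries were below every 0 h library and the theca and stroma sums lay within the 0 h range. The part of these other cells in the endothelial rise was not tested. No marker of the pericyte or the theca list was at 0 in all libraries.

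**Figure D2:**
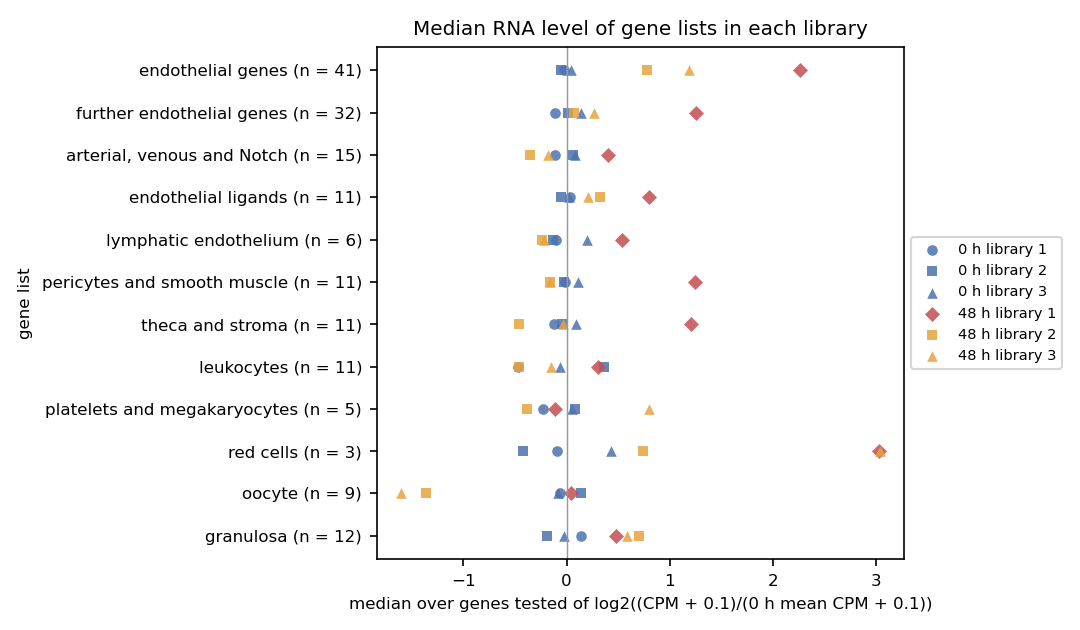
Median over the tested genes of each list (n in parentheses) of the log2 level of each library against the 0 h mean, with a pseudocount of 0.1 CPM; 1 point per library, with colours and shapes for group and library. For the 41 endothelial genes the 48 h libraries lie at 2.26, 0.78 and 1.19. Pericyte markers lie at 1.25, -0.16 and -0.16 and theca and stroma markers at 1.21, -0.46 and -0.0387. The further endothelial genes, outside the 41, lie at 1.26, 0.0765 and 0.27. Red-cell genes at 3.03, 0.74 and 3.04 and granulosa markers at 0.48, 0.71 and 0.58 also lie above 0 in all 3.

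Of 11 leukocyte markers tested 0 passed by edgeR, with 1 at an unadjusted p under 0.05 and 0 called by DESeq2. Their sums were 227, 376 and 276 CPM at 0 h and 331, 193 and 256 CPM in 48 h libraries 1 to 3, and library 1 lay within the 0 h range. Lyz2 and Csf1r, of myeloid cells, were at 140.4 ± 26.02 CPM at 0 h and 117 ± 26.6 CPM at 48 h and 33.8 ± 10.1 CPM at 0 h and 29.3 ± 11.3 CPM at 48 h. All 3 red-cell genes tested rose, with sums over the list of 90.1, 68.5 and 129 CPM at 0 h and 544, 164 and 685 CPM in 48 h libraries 1 to 3; here 48 h library 3 was the highest. Alas2, of haem synthesis, had 91.9 ± 29.6 CPM at 0 h and 436 ± 255 CPM at 48 h and Slc4a1, the anion exchanger of red cells, had 3.27 ± 1.24 CPM at 0 h and 21.5 ± 10.5 CPM at 48 h, whereas the globin genes Hba-a1, Hba-a2, Hbb-bs and Hbb-bt were listed at 0 in every RNA library.

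Of 5 platelet markers tested 1 rose, Itgb3 (log2 1.34 ± 0.13, adjusted p = 2.96e-04), an integrin also made by other cells, and 4 did not pass, among them Itga2b at 4.98 ± 0.985 CPM at 0 h and 3.96 ± 0.625 CPM at 48 h. Of 9 oocyte markers 2 fell, Gdf9 (-0.999) and Bmp15 (-1.22), and 7 did not pass, and their sums were 112, 121 and 106 CPM at 0 h and 113, 42.5 and 41.3 CPM in 48 h libraries 1 to 3, within the 0 h range in library 1 and below it in libraries 2 and 3. Zp2 and Padi6 of that list were at 19.1 ± 1.13 CPM at 0 h and 15.5 ± 9.85 CPM at 48 h and 20.7 ± 2.04 CPM at 0 h and 10.1 ± 7.99 CPM at 48 h and did not pass. The part of these cells in the endothelial values was not tested. Beside these counts, 16.0% of all genes tested rose and 15.8% fell.

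Of 32 further endothelial genes tested outside the 41, 11 rose, 3 fell and 18 did not pass, with a median log2 fold of 0.48. Summed levels over the 34 found in RNA were 703, 761 and 852 CPM at 0 h and 1534, 746 and 800 CPM in 48 h libraries 1 to 3. Libraries 2 and 3 thus lay within the 0 h range. Both were above every 0 h library at 12 of the 32 genes, which was so for 30.8% of all genes tested. Sparcl1, a matrix protein of vessels and stroma, had 77.5 ± 5.49 CPM at 0 h and 171 ± 110.1 CPM at 48 h (log2 1.13 ± 0.37, adjusted p = 0.0435). Adgrf5, an adhesion receptor of endothelium and some epithelia, was the most abundant of them and fell, with 191 ± 18.4 CPM at 0 h and 128 ± 32.7 CPM at 48 h (log2 -0.58 ± 0.17, adjusted p = 0.0285). The other falls were Klf2 (-0.48) and Rgcc (-0.399), and the rises included Stab2 (2.46), Cd93 (2.34), Cyyr1 (2.22) and Ly6c1 (2.202), the 4 with the highest log2 folds. Of genes of arterial and venous identity and Notch, 3 of 15 tested rose, Notch4 (2.41), Notch1 (1.44) and Acvrl1 (0.99), 3 fell, Hey1 (-0.77), Hes1 (-0.56) and Nr2f2 (-0.36), and 9 did not pass. Over all genes tested 16.0% rose and 15.8% fell. Ephb4, a venous ephrin receptor, was at 141 ± 9.24 CPM at 0 h and 162 ± 20.9 CPM at 48 h and Hey2, a Notch target, at 103 ± 18 CPM at 0 h and 122 ± 22.7 CPM at 48 h, and neither passed.

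Of 11 genes tested from a list of endothelial ligands 4 rose, 2 fell and 5 did not pass. Their median log2 fold was 0.49, and over all genes tested 16.0% rose and 15.8% fell. Vegfa, the main ligand of Kdr, was at 164 ± 31.2 CPM at 0 h and 164 ± 13.1 CPM at 48 h (log2 0.00119 ± 0.14, adjusted p = 0.995) and Vegfb, a ligand of Flt1, at 45.8 ± 1.36 CPM at 0 h and 48.1 ± 2.95 CPM at 48 h (log2 0.0699 ± 0.0835, adjusted p = 0.557). Those that rose were Apln (3.19), Angpt1 (1.77), Angpt4 (1.004) and Vegfd (0.91), the ligands of Aplnr, Tek (both angiopoietins) and Flt4, and those that fell were Edn1 (-1.39) and Pdgfb (-0.76), log2 folds in parentheses. Not all ligands of receptors among the 41 rose. Angpt2, another angiopoietin, was at 47.2 ± 8.71 CPM at 0 h and 40.5 ± 8.97 CPM at 48 h (log2 -0.22 ± 0.18, adjusted p = 0.382). Vegfc (0.73), also a ligand of Flt4, and Adm (0.49), which encodes adrenomedullin, did not pass either. Bmp10, a circulating ligand seen by Eng, was listed at 0 in every library. Of 6 lymphatic markers tested, 2 of which belong to the 41, 1 rose (Flt4), 1 fell (Reln, a secreted glycoprotein, log2 -0.84 ± 0.21, adjusted p = 0.0176) and 4 did not pass. Pdpn, podoplanin, was at 28.7 ± 3.24 CPM at 0 h and 29.02 ± 6.16 CPM at 48 h, and Ccl21a, a lymphatic chemokine, was listed at 0 in every library.

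H3K4me3, a mark found at active promoters, was asked of the same 41 genes. Its counts are per gene over a region that the sources used here do not define, so levels of different genes may cover different lengths. With the mean of 4 libraries as the measure, 21 of the 41 genes (51.2%) were above 5 CPM and 20 were not. The share above 5 CPM was 59.9% of all IDs in the table, 88.4% of the genes tested in RNA, 89.8% of genes that rose in RNA and 9.28% of genes with no RNA count. Among genes tested in RNA whose mean level lay within the range of the 41, 0.957 to 105 CPM, it was 88.7%.

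All 20 genes not above 5 CPM were below it in each of the 4 libraries. They had means of 1.03 to 4.14 CPM and included Cdh5, Pecam1, Emcn, Tek, Tie1, Eng and Aplnr, which all rose in RNA. Pecam1 had 2.56 and 1.91 CPM at 0 h and 3.06 and 2.58 CPM at 48 h, Tie1 2.37 and 2.33 CPM at 0 h and 2.46 and 2.19 CPM at 48 h and Aplnr 2.11 and 2.16 CPM at 0 h and 3.12 and 2.47 CPM at 48 h. None of the 3 passed the test, and for Tie1 the groups overlapped. Egfl7, Vwf, Gpihbp1, Plvap and Nos3 had means of 1.23, 1.03, 1.06, 1.33 and 1.44 CPM, the lowest of the list. Nearest to the limit from below were Lyl1 at 4.14 and Cdh5 at 4.06 CPM, and from above Ptprb at 5.31 and Sox17 at 5.67 CPM.

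The 21 genes above 5 CPM reached 40.7 CPM, and 19 were above 5 CPM in every library, Ptprb and Sox17 being the exceptions. They held 6 of the 7 transcription factors, with Fli1 at 32.8, Sox18 at 30.02, Sox7 at 17.6, Erg at 12.5 and Tal1 at 11.3 CPM. The VEGF receptors Kdr, Flt4 and Flt1 were at 30.8, 28.3 and 9.13 CPM, whereas Tek, Tie1 and Eng were at 2.68, 2.34 and 2.92 CPM. Kdr had 32.3 and 28.1 CPM at 0 h and 30.5 and 32.4 CPM at 48 h, with overlapping groups. S1pr1, at 45.2 and 39.9 CPM at 0 h and 35.3 and 42.5 CPM at 48 h, had the highest mean of the 41. The regions of Dll4 and Mmrn2 had counts like those of the neighbouring genes Gm14207 and Sncg and may be shared with them. Among other lists, the number above 5 CPM was 10 of 12 granulosa markers, 9 of 11 theca and stroma markers, 8 of 12 pericyte markers, 15 of 16 arterial, venous and Notch genes, 12 of 16 endothelial ligands and 20 of 34 further endothelial genes. It was 4 of 7 lymphatic markers, 3 of 10 oocyte markers, 3 of 10 platelet markers, 1 of 7 red-cell genes and 0 of 12 leukocyte markers.

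**Figure D3:**
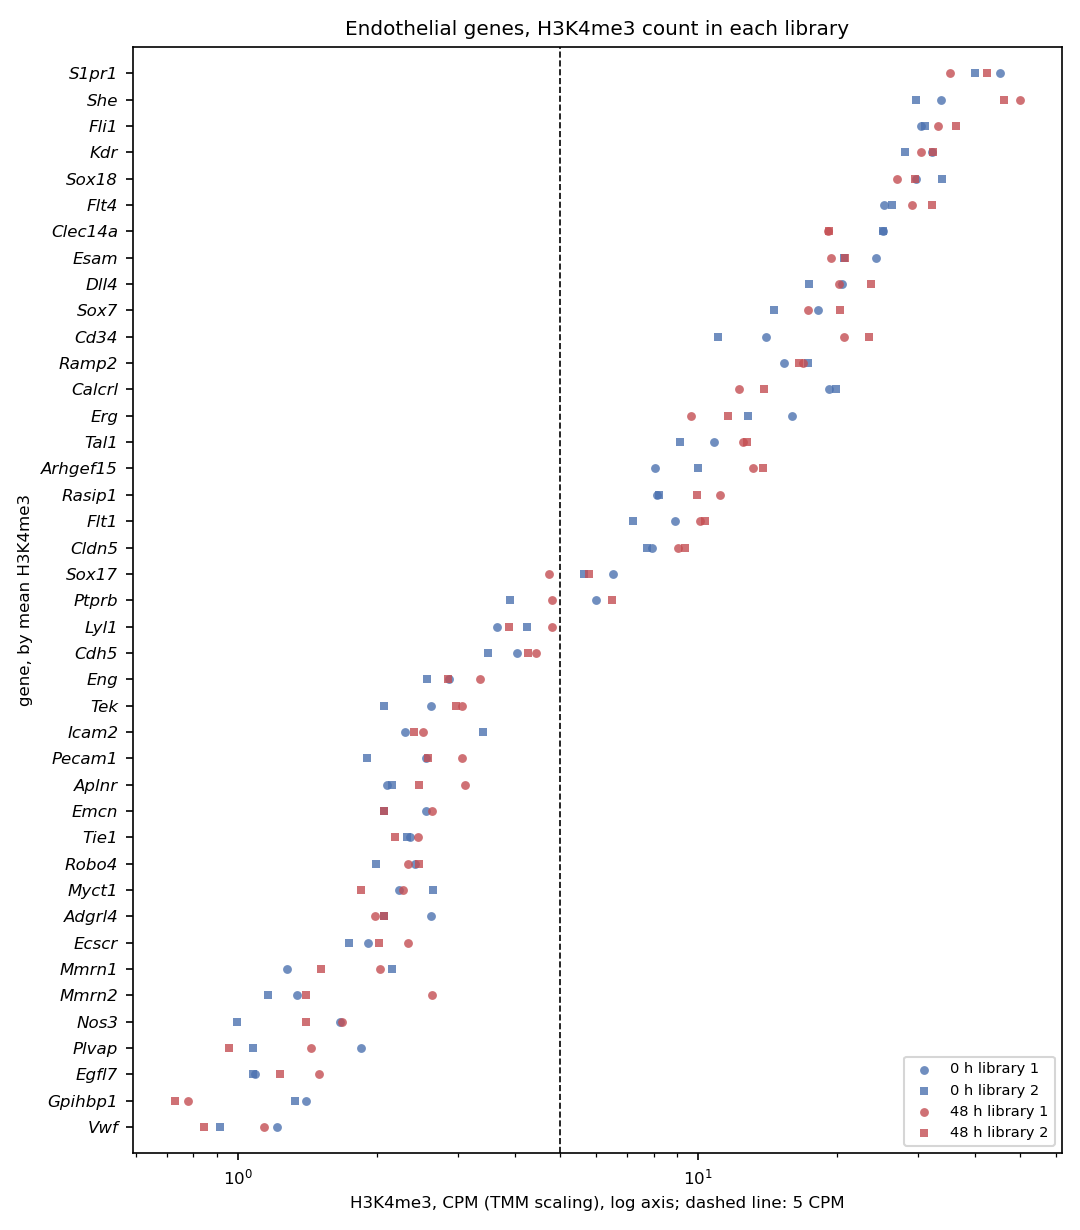
H3K4me3 count in CPM (log axis) of the 41 endothelial genes, ordered by mean, with 1 point for each of 4 libraries, blue at 0 h and red at 48 h; the dashed line marks 5 CPM. The points of 20 genes lie wholly to the left of the line and those of 19 wholly to its right, with Ptprb and Sox17 on both sides.

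After eCG H3K4me3 differed at 6 of the 41 genes by edgeR's quasi-likelihood test over 24476 IDs. It rose at 3 (7.32%) and fell at 3 (7.32%), against 6.35% and 2.08% of all IDs tested (8.42% in either direction). At 16 genes both 48 h libraries were above both at 0 h and at 6 both were below, which was so for 26.5% and 22.8% of all IDs tested. The median log2 fold change of the 41 was 0.17, beside -0.00143 for all. Each group has 2 libraries, so the spread behind these tests is estimated mostly from all IDs together. Cd34 had 14.1 and 11.1 CPM at 0 h and 20.8 and 23.5 CPM at 48 h (log2 0.804 ± 0.12, adjusted p = 6.75e-06) and She 33.7 and 29.8 CPM at 0 h and 49.99 and 46.1 CPM at 48 h (log2 0.59 ± 0.0833, adjusted p = 1.09e-06). In both the groups were well apart, and both kept the call under every alternative run. Arhgef15 had 8.06 and 9.97 CPM at 0 h and 13.1 and 13.8 CPM at 48 h (log2 0.59 ± 0.15, adjusted p = 0.00725), a call lost with DESeq2 (0.0788) and without 0 h library 1 (0.519, with a log2 fold of 0.41). On simulated counts the H3K4me3 test missed part of the smaller changes, so the 35 genes that did not pass are not shown to be unchanged.

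The 3 falls were at Calcrl, Clec14a and Erg. Their RNA did not pass by edgeR, although that of Calcrl was called higher by DESeq2. Calcrl had 19.3 and 19.9 CPM at 0 h and 12.2 and 13.9 CPM at 48 h (log2 -0.58 ± 0.12, adjusted p = 0.00101), Clec14a 25.2 and 25.3 CPM at 0 h and 19.1 and 19.2 CPM at 48 h (log2 -0.396 ± 0.103, adjusted p = 0.00897) and Erg 15.99 and 12.8 CPM at 0 h and 9.66 and 11.6 CPM at 48 h (log2 -0.44 ± 0.14, adjusted p = 0.0446). In each the 48 h libraries were below both 0 h libraries. Without 0 h library 1 the 0 h group is a lone library, assumed to vary like the 48 h group, and the log2 folds were -0.63 at Calcrl, -0.42 at Clec14a and -0.28 at Erg, with adjusted p of 0.137, 0.291 and 0.713. Clec14a was also lost without 0 h library 2 (0.0778) and with DESeq2 (0.0788), and Erg without 48 h library 1 (0.26), with DESeq2 (0.204), with library size as the only scaling (0.0605) and with a block on the replicate number (0.149). Flt4 passed as a rise without 48 h library 1 (0.042) and S1pr1 as a fall without 48 h library 2 (0.0248).

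Set side by side, RNA rose at 15 of the 21 genes above 5 CPM of H3K4me3 and at 16 of the 20 that were not. The median RNA log2 fold was 1.23 in the former and 1.79 in the latter, and the median ratio of 48 h library 1 to the mean of libraries 2 and 3 was 1.86 and 2.56. The difference between these 2 sets of genes was not tested. Cd34, She and Arhgef15 were higher at 48 h in both assays. She lost its RNA call under 6 of 11 alternatives, and Arhgef15 lost its H3K4me3 call with DESeq2 (adjusted p = 0.0788). Cd34 kept both calls under every alternative run. Pecam1, Tie1, Tek, Aplnr, Emcn, Adgrl4 and Mmrn2 rose in RNA by 1.76 to 2.67 on the log2 scale with H3K4me3 below 5 CPM in every library.

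**Figure D4:**
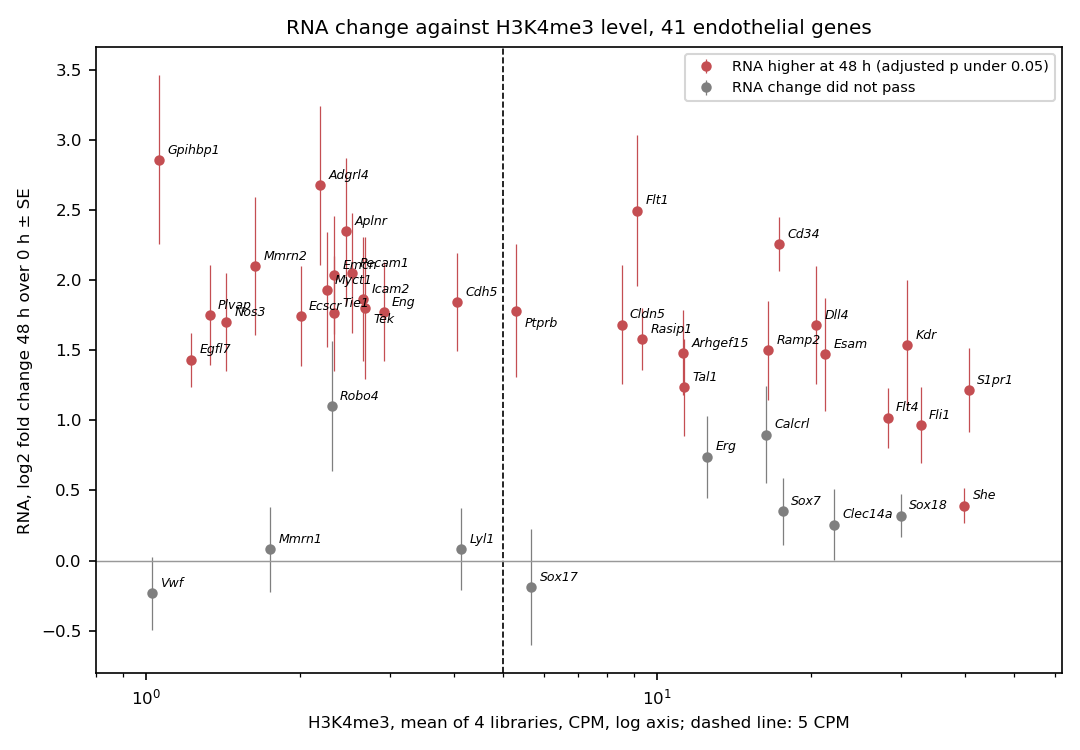
RNA log2 fold change (48 h over 0 h) with its SE against the mean H3K4me3 level over 4 libraries (CPM, log axis) for the 41 genes; red marks genes that rose in RNA, grey those that did not pass, and the dashed line 5 CPM. Genes that rose lie on both sides of the line, 16 to its left and 15 to its right. In all 10 of the 41 genes are grey, among them 5 of the 7 transcription factors. Of all genes tested in RNA 16.0% rose.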

How the data were processed

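The deposited tables of both assays hold raw counts for each Entrez ID, whole numbers whose totals differ between libraries, so no normalization by the authors is seen in them. Per the submitters' processing notes, FastQC 0.11.5, Picard, STAR, kallisto and sleuth were used for RNA and Trimmomatic, Bowtie2 2.2.9, MACS2 2.2 and ChIPseeker 1.18.0 for ChIP-seq, on mm10. The sources used here do not give their roles, the use of strand or the H3K4me3 region counted. The input DNA library was not analysed here. RNA columns were tied to samples by name and H3K4me3 columns to groups, with library numbers as in the table's header, and symbols, coordinates and promoter windows came from RefSeq tables of GRCm38.p6. Replicates within a group differed beyond sampling noise (chi-square per degree of freedom 1.69 or more). In RNA this value was 38.5 and 22.6 for 48 h library 1 against libraries 2 and 3. Between 48 h libraries 2 and 3 it was 5.16.

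Each assay was tested on the whole table with edgeR 4.0.16 in R 4.3.3: TMM scaling, the filterByExpr filter, a quasi-likelihood test of 48 h against 0 h and Benjamini-Hochberg adjustment, called at an adjusted p under 0.05. The SE was derived from the test statistic. Alternatives were other scalings, no filter, DESeq2 1.42.0, a replicate block and leaving out each library. The procedure was tested on simulated data, where signs were recovered and part of the smaller changes was missed, more in H3K4me3; the pass mark was set after a stricter one was not met. The genes, marker lists and limits, and the showing apart of 48 h library 1, were chosen with earlier results of these data known. Named were all 41 genes, the 2 most abundant tested genes of each other list and list genes at 0 in all libraries. Other genes of these lists were named after their values were seen. A p-value sets a group difference against the spread between libraries, estimated in part from all genes together, and against no other spread.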

Additional observations from a re-analysis of the deposited data

How the results depend on the processing

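The number of the 41 genes that rose in RNA ranged from 22 to 33 over 11 alternatives, with 0 lower in each. Over the same alternatives 1543 to 2697 of all genes tested rose. The median log2 fold of the list stayed above 0 under every alternative. The count over all genes tested (4585 in RNA, 2062 in H3K4me3) moved more. When 1 library was left out it was 2882 to 5345 in RNA, lowest without 0 h libraries 3 and 2 (2956 without the latter), and 282 to 2764 in H3K4me3, lowest without 0 h library 1. With library size as the only scaling, RNA gave 1543 higher and 4222 lower genes, against 2303 and 2282. For H3K4me3, DESeq2 called 864 IDs and 1 of the 41 as lower, and leaving out 1 library gave 0 to 4 lower. The H3K4me3 median of the 41 (0.17) was 0.162 with DESeq2 size factors, 0.117 with library size alone, 0.151 with no filter and 0.0834 to 0.201 without 1 library. The cause was not tested.

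With the replicate number as a block, 29 of the 41 rose in RNA, where 1788 of all genes tested rose and 1524 fell. In H3K4me3 1280 IDs passed with the block. The deviations of same-numbered libraries from their group means had correlations of -0.219, -0.151 and -0.154 in RNA and -0.009 in H3K4me3. With so few libraries per group, these values cannot decide whether the numbers pair the samples. Some fold changes turned direction, none of them called. Not all were near 0 in the main fit, as with log2 folds of -0.33 at Plvap in H3K4me3 and 0.26 at Clec14a in RNA. In RNA, with library size alone, Mmrn1 was -0.0964 and Lyl1 -0.0944, and with the block Mmrn1 was -0.0131. In H3K4me3, with library size alone, Kdr was -0.00251, Emcn -0.0465 and Ramp2 -0.0139, and Emcn was -0.00135 with DESeq2 size factors and -0.0126 with no filter. Leaving out 1 library gave RNA log2 folds of -0.103 to 0.47 at Clec14a, -0.11 to 0.33 at Lyl1, -0.42 to 0.37 at Mmrn1, -0.47 to 0.37 at Sox17 and -0.54 to 0.03496 at Vwf. For H3K4me3 it gave -0.18 to 0.18 at Emcn, -0.49 to 0.0986 at Icam2, -0.0384 to 0.14 at Kdr, -0.0258 to 0.29 at Lyl1, -0.31 to 0.47 at Mmrn1, -0.11 to 0.601 at Nos3, -0.66 to 0.12 at Plvap, -0.0842 to 0.52 at Ptprb, -0.0696 to 0.12 at Ramp2, -0.0141 to 0.25 at Robo4, -0.11 to 0.0669 at Tie1 and -0.36 to 0.0893 at Vwf. Fits that leave out an H3K4me3 library have a lone library in 1 group, assumed to vary like the other.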
